A study of Mus musculus with 8 samples.

Results

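The miR-23, miR-24 and miR-27 clusters are the mature miRNAs cut from a pair of paralogous transcripts, and their levels were compared in kidneys of mice with LPS-induced injury and of sham mice (LPS is lipopolysaccharide, from the outer membrane of Gram-negative bacteria). The members were the 9 listed arms whose names the array's probes carry: the guide strands mmu-miR-23a-3p, mmu-miR-23b-3p, mmu-miR-24-3p, mmu-miR-27a-3p and mmu-miR-27b-3p, and the passenger arms mmu-miR-24-1-5p, mmu-miR-24-2-5p, mmu-miR-27a-5p and mmu-miR-27b-5p (written below without the prefix for mouse). They are 9 of the 1881 mouse miRNAs on the array, and 7 of the 338 miRNAs that were well above background on every array of at least 1 group. The first group was the LPS-AKI model, in which 10 µg of LPS per g of body weight was injected into the peritoneal cavity to give a septic acute kidney injury, with 4 samples. The second was the sham model, injected with saline, with 4 samples. Kidneys were taken 24 h later, and strain, sex and age are not given in the sources used here. From 30 mg of kidney, 100 ng of total RNA was labelled with Cy3 and hybridised to Agilent miRNA arrays, 1 array per sample. Whether every sample is a separate animal is not stated in the labels, and the tests below measure sample-to-sample spread, which may be technical.

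A miRNA hairpin is cut by Drosha and Dicer into a duplex, of which the guide strand is kept in Argonaute and pairs with messenger RNAs through its seed, while the passenger strand is mostly degraded. The a cluster gives miR-23a, miR-27a and miR-24 (from the hairpin Mir24-2), and the b cluster gives miR-23b, miR-27b and miR-24 again (from Mir24-1). In mice, these miRNAs are known from endothelial cells and blood vessel growth, miR-24 from tubular cell death after renal ischaemia, and miR-23b from restraint of cytokine signalling in autoimmune inflammation. In human macrophages, miR-27b is known to rise with LPS and to lower the messenger RNA of the nuclear receptor PPARγ.

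On GRCm38.p6, the a cluster spans 404 bases, chr8:84208518-84208921, and lies inside no other annotated gene of the RefSeq table. The b cluster spans 792 bases, chr13:63300484-63301275, within the protein-coding gene Aopep (chr13:62964893-63326096). Mature sequences were found in RefSeq (GRCm38.p6) for 8 of the 9 members. They are shown 5′ to 3′ to set the families apart, with the seed, bases 2 to 8, in capitals.
miR-23a-3p: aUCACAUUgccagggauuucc
miR-27a-3p: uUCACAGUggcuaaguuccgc
miR-27b-3p: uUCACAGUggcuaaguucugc
miR-24-3p: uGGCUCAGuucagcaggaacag
miR-24-1-5p: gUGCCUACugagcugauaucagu
miR-24-2-5p: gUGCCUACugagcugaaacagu
miR-27a-5p: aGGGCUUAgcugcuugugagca
miR-27b-5p: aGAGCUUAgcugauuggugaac
The guides miR-27a-3p and miR-27b-3p share their seed and differ by 1 base, C19U, counted from the 5′ end of the miRNA with the base of miR-27a-3p first. The passenger arms of miR-24 also share a seed and differ from base 17 on, whereas the passenger arms of miR-27 differ at 8 of 22 bases, in the seed by G3A. The sequence of miR-24-3p is the same at both loci, so its level is a sum over the clusters. Its seed is also that of miR-5124b, miR-6369, miR-6410 and miR-6413, and all 4 were below background on all 8 arrays.

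The array separates the a and b guides by a single base, as the probes of equal length show (5′ to 3′, with the differing base in capitals).
miR-23a-3p probe: ggAaatccctggcaatg
miR-23b-3p probe: ggTaatccctggcaatg
miR-27a-3p probe: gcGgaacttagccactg
miR-27b-3p probe: gcAgaacttagccactg
The differences are A3T for miR-23 and G3A for miR-27, counted from the 5′ end of the probe with the a cluster's base first. Both lie near that end. How far a probe also binds the miRNA of the other cluster was not tested.

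Levels are log2 signals with the 75th percentile of each array set to 0, and a difference is LPS minus sham on this scale. The guides of both clusters were close in LPS and sham kidneys, and 0 of the 7 tested members passed the test at an adjusted p of 0.05 (limma, Benjamini-Hochberg adjustment over 338 miRNAs), against 40.2% of all tested miRNAs (14.8% higher and 25.4% lower). At an unadjusted p of 0.05, 0 of 7 passed as well, against 163 of 338. With slide column as a block, which pairs each LPS array with the sham array of its column, 0 of 7 passed, against 23.7% of the 338. Differences ran from -0.091 for miR-27b-3p to 0.10 for miR-24-2-5p, and their median was -0.017, against -0.083 over all 338. The median absolute difference was 0.039 among the 7 members and 0.20 over all 338. In 0 of the 7 did the LPS and sham arrays not overlap, against 37.0% of the 338. The 95% confidence intervals of the 7 fold changes together reached from 0.862 to 1.248. A difference that misses the threshold does not show that levels were equal. The sham arrays filled row 1 of the slide and the LPS arrays row 2, and the effect of the row cannot be told apart from that of LPS. In whole-kidney RNA, fewer cells of a type and less RNA per cell cannot be told apart either.

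MiR-23a-3p, the guide of the first hairpin of the a cluster, had levels of 3.16, 3.48, 3.32 and 3.43 in LPS replicates 6, 10, 11 and 12, against 3.40, 3.47, 3.32 and 3.28 in sham replicates 5, 6, 7 and 8. LPS replicate 6 was the lowest and LPS replicate 10 the highest of the 8, so the groups overlapped fully. The difference was -0.017 ± 0.082 (SE, adjusted p = 0.886 with limma). MiR-23b-3p had levels of 3.50, 3.68, 3.50 and 3.56 in LPS replicates 6, 10, 11 and 12, against 3.62, 3.62, 3.59 and 3.57 in sham replicates 5, 6, 7 and 8. The sham arrays lay close together and LPS replicate 10 above them all, while the other 3 LPS arrays lay below all sham arrays. Its difference was -0.039 ± 0.056 (SE, adjusted p = 0.600 with limma).

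MiR-27a-3p had levels of 2.14, 2.38, 2.20 and 2.34 in LPS replicates 6, 10, 11 and 12, against 2.31, 2.46, 2.24 and 2.18 in sham replicates 5, 6, 7 and 8. The groups overlapped, with LPS replicate 6 lowest and sham replicate 6 highest, and the difference was -0.027 ± 0.082 (SE, adjusted p = 0.820 with limma). MiR-27b-3p had levels of 2.28, 2.38, 2.21 and 2.29 in LPS replicates 6, 10, 11 and 12, against 2.39, 2.42, 2.38 and 2.34 in sham replicates 5, 6, 7 and 8. LPS replicates 6, 11 and 12 lay below all sham arrays and LPS replicate 10 lay among them. The difference was -0.091 ± 0.054 (SE, adjusted p = 0.203 with limma, 95% confidence interval -0.21 to 0.032), and the median of all tested miRNAs was -0.083. MiR-24-3p, the guide that both clusters give, had levels of 3.34, 3.52, 3.32 and 3.41 in LPS replicates 6, 10, 11 and 12, against 3.41, 3.42, 3.31 and 3.30 in sham replicates 5, 6, 7 and 8. Here too the groups overlapped, and the difference was 0.038 ± 0.063 (SE, adjusted p = 0.658 with limma). For all 5 guides LPS replicate 10 was the highest LPS array and sham replicate 8 the lowest sham array.

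**Figure D1:**
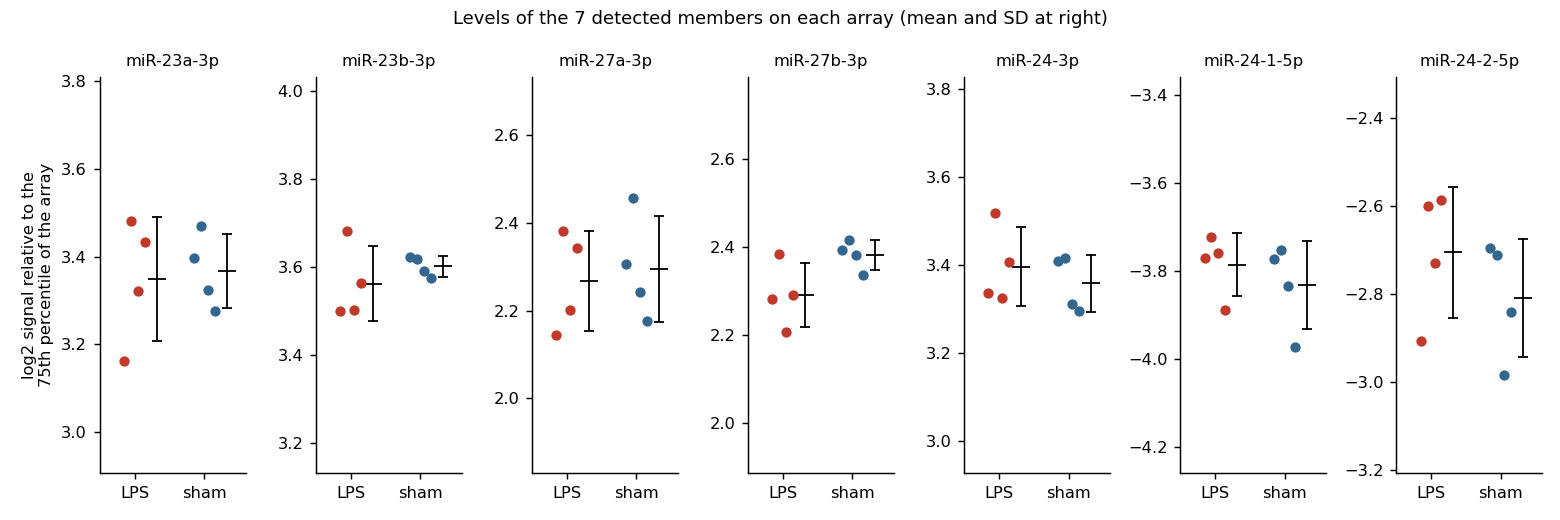
Levels of the 7 detected members on each array, as log2 signal with each array's 75th percentile set to 0, with 4 LPS arrays left of 4 sham arrays and the mean ± SD beside the points. Every panel spans the same range, and the groups overlap in all 7.

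Among the passenger arms, only those of miR-24 were measured. MiR-24-2-5p, from the a cluster, had levels of -2.91, -2.60, -2.73 and -2.59 in LPS replicates 6, 10, 11 and 12, against -2.70, -2.71, -2.98 and -2.84 in sham replicates 5, 6, 7 and 8. Its difference of 0.10 ± 0.095 was the largest of the 7 with the widest interval (SE, adjusted p = 0.412 with limma, 95% confidence interval -0.11 to 0.32). MiR-24-1-5p, from the b cluster, had levels of -3.77, -3.72, -3.76 and -3.89 in LPS replicates 6, 10, 11 and 12, against -3.77, -3.75, -3.83 and -3.97 in sham replicates 5, 6, 7 and 8. The groups overlapped, with a difference of 0.047 ± 0.067 (SE, adjusted p = 0.600 with limma). Of its probes, the one of 21 bases was well above background on all 8 arrays and the one of 20 bases on 0, and the level is the sum over both. The probe of 21 bases had signals of 23.3 to 31.6 and the probes of miR-24-2-5p 28.7 to 49.6, close to the lowest signals above background given below. With double the floor no difference was left for miR-24-1-5p. MiR-27a-5p and miR-27b-5p were not well above background on any array. Their probes had signals of -5.14 to 3.25 for miR-27a-5p and -6.53 to 3.31 for miR-27b-5p, where the lowest signal of a probe above background was 16.6 to 20.4 on the arrays, and no fold can be given. The other products of these hairpins and of the hairpins antisense to miR-24 (miR-23a-5p, miR-23b-5p, miR-3074-5p, miR-3074-1-3p and miR-3074-2-3p) were likewise above background on 0 of 8 arrays, with signals of at most 9.25. Guide probes had signals of 563.4 to 4830 and repeat spots within an array varied by an SD of 0.026 to 0.054 log2, against an SD between arrays of a group of 0.023 to 0.14.

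**Figure D2:**
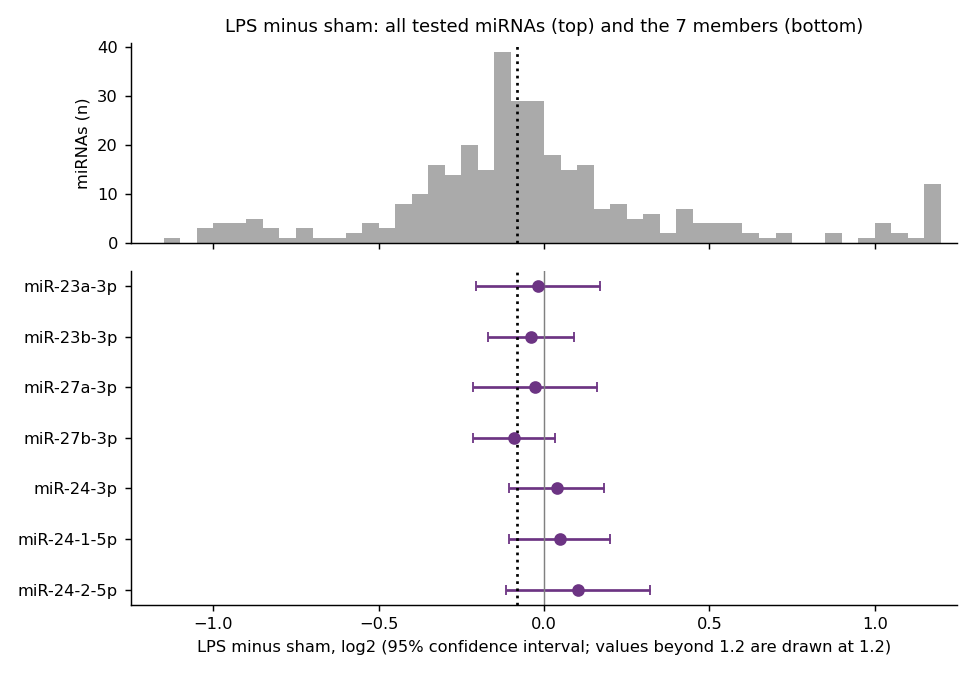
LPS minus sham differences on the log2 scale, as a histogram of the 338 tested miRNAs (top) and as points with 95% confidence intervals for the 7 tested members (bottom), with the dotted line at the median of all, -0.083. All 7 intervals include 0, and 6 of the 7 points lie above the dotted line.

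Ratios between members on the same array need no scaling between arrays, and a shift in a ratio shows unequal change without saying which member changed. In 11 such ratios, tested by 2-sided exact permutation over 4 LPS against 4 sham arrays (which allows no p below 0.0286), 0 had an adjusted p under 0.05 (Benjamini-Hochberg over the 11). At this size that says little, since at least 7 of the 11 would have to separate the groups completely for any to pass, and a single one that did would have an adjusted p of 0.314. Between the clusters, the ratio of miR-23a-3p to miR-23b-3p was -0.21 ± 0.088 in LPS and -0.23 ± 0.064 in sham kidneys (mean log2 ± SD, n = 4 each, exact permutation p = 0.714, adjusted p = 0.786). The summed probes have 17 and 18 bases for miR-23a-3p and 16 and 17 for miR-23b-3p, so this ratio does not give their relative abundance. On the probes of 17 bases, mean levels of miR-23a-3p and miR-23b-3p were 1.54 and 3.04 in LPS and 1.65 and 3.05 in sham kidneys. The ratio of miR-27a-3p to miR-27b-3p was -0.14, -0.0013, -0.0055 and 0.053 in LPS replicates 6, 10, 11 and 12, against -0.087, 0.040, -0.14 and -0.16 in sham replicates 5, 6, 7 and 8. The difference was 0.064 ± 0.060 (SE, n = 4 each, exact permutation p = 0.343, adjusted p = 0.584), less than the SD of either group. For the passenger arms the ratio of miR-24-2-5p to miR-24-1-5p differed by 0.056 ± 0.11 (SE, n = 4 each, exact permutation p = 0.686, adjusted p = 0.786). The a to b ratios overlapped between the groups in all 3 families.

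Within miR-24, the ratios of both passengers to the guide overlapped between the groups. MiR-24-1-5p relative to miR-24-3p differed by 0.0087 ± 0.058 (SE, n = 4 each, exact permutation p = 0.886, adjusted p = 0.886), and miR-24-2-5p relative to miR-24-3p by 0.064 ± 0.069 (SE, n = 4 each, exact permutation p = 0.371, adjusted p = 0.584). These values moved with cyclic loess and quantile normalization, which, unlike dividing an array by a constant, can change a within-array ratio. With cyclic loess they were 0.15 ± 0.065 for miR-24-1-5p (SE, n = 4 each, exact permutation adjusted p = 0.157) and 0.26 ± 0.0997 for miR-24-2-5p (SE, n = 4 each, exact permutation adjusted p = 0.189), and with quantile normalization 0.077 and 0.14. The arms of miR-27 could not be compared, since their passengers were below background.

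Among guides, the ratios of the b cluster's miR-23b-3p and miR-27b-3p to miR-24-3p separated the groups completely. Both share miR-24-3p, so they are not independent. How often ratios between other miRNAs separate the groups was not computed, and 37.0% of the 338 single miRNAs did not overlap. The log2 ratio of miR-27b-3p to miR-24-3p was -1.06, -1.14, -1.12 and -1.12 in LPS replicates 6, 10, 11 and 12, against -1.02, -1.001, -0.93 and -0.96 in sham replicates 5, 6, 7 and 8. Every LPS array was below every sham array, by -0.13 ± 0.026 on average (SE, n = 4 each, exact permutation p = 0.0286, the smallest possible, adjusted p = 0.157). The ratio of miR-23b-3p to miR-24-3p was 0.16, 0.16, 0.18 and 0.16 in LPS replicates 6, 10, 11 and 12, against 0.21, 0.20, 0.28 and 0.28 in sham replicates 5, 6, 7 and 8. It did not overlap either, with a difference of -0.078 ± 0.021 (SE, n = 4 each, exact permutation p = 0.0286, adjusted p = 0.157). With only the longest probe of each miRNA, an alternative chosen after seeing the data, both ratios overlapped, with differences of -0.097 for miR-27b-3p and -0.039 for miR-23b-3p (exact permutation p = 0.0571 and 0.229, n = 4 each). With only the shortest probe, an alternative also chosen after seeing the data, 5 ratios separated the groups. Those of miR-23a-3p, miR-23b-3p, miR-27a-3p and miR-27b-3p to miR-24-3p lay lower on every LPS array, by -0.16, -0.15, -0.18 and -0.21. The ratio of miR-23b-3p to miR-27b-3p lay higher on every one, by 0.061 (for these 5, exact permutation p = 0.0286, adjusted p = 0.0629, n = 4 each). With quantile normalization the same 4 ratios to miR-24-3p separated the groups, by -0.12, -0.13, -0.13 and -0.19 (exact permutation p = 0.0286, adjusted p = 0.0786, n = 4 each). With the probes summed, the other 4 ratios between guides overlapped. MiR-23b-3p relative to miR-27b-3p differed by 0.052 ± 0.020 (SE, n = 4 each, exact permutation p = 0.0857, adjusted p = 0.314), and miR-27a-3p relative to miR-24-3p by -0.066 ± 0.045 (SE, n = 4 each, exact permutation p = 0.200, adjusted p = 0.550). MiR-23a-3p differed by -0.056 ± 0.047 relative to miR-24-3p (SE, n = 4 each, exact permutation p = 0.314, adjusted p = 0.584), and by 0.0098 ± 0.030 relative to miR-27a-3p (SE, n = 4 each, exact permutation p = 0.600, adjusted p = 0.786).

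**Figure D3:**
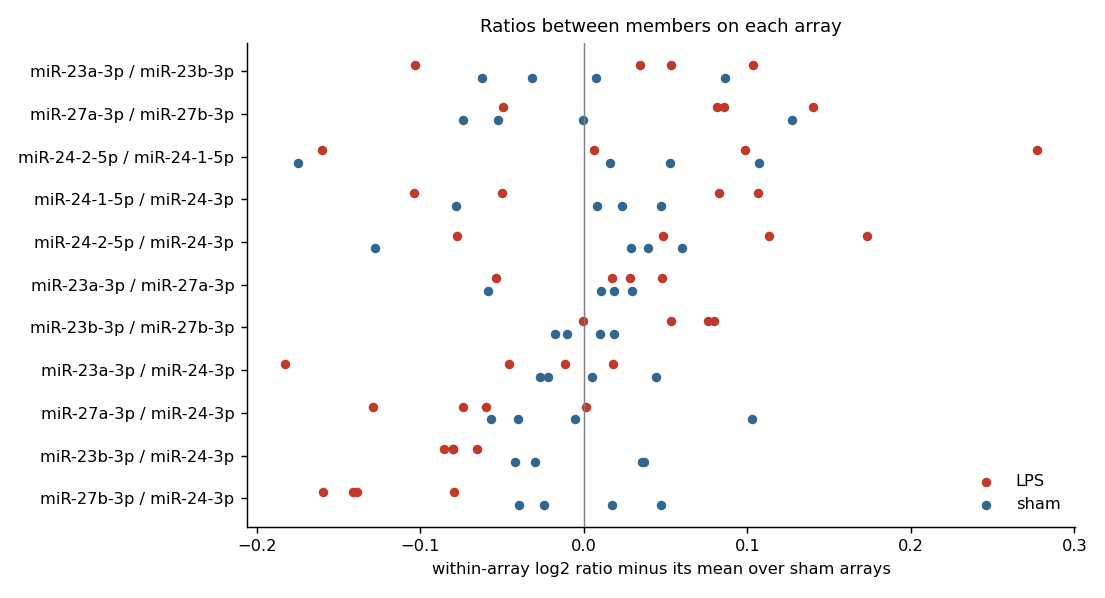
Within-array log2 ratios between members, drawn as the distance from their mean over the sham arrays, with LPS arrays above sham arrays in each pair. The points separate in the ratios of miR-23b-3p and miR-27b-3p to miR-24-3p and overlap in the other 9.

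The probes of a single guide did not move alike between the groups. The longer probe has the sequence of the shorter plus 1 base at its 3′ end, and so can pair with 1 more base toward the 5′ end of the miRNA (shown 5′ to 3′ with the extra base in capitals, because the results by probe turn on it).
miR-23a-3p longer probe: ggaaatccctggcaatgT
miR-23b-3p longer probe: ggtaatccctggcaatG
miR-27a-3p longer probe: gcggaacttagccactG
miR-27b-3p longer probe: gcagaacttagccactG
miR-24-3p longer probe: ctgttcctgctgaactgA
miR-24-2-5p longer probe: actgtttcagctcagtA
The log2 ratio of the longer to the shorter probe of miR-27a-3p was 1.08, 1.09, 1.10 and 1.07 in LPS replicates 6, 10, 11 and 12, against 0.92, 0.93, 0.93 and 0.92 in sham replicates 5, 6, 7 and 8. The groups did not overlap and differed by 0.16, where the SD was 0.013 in LPS and 0.0029 in sham. For miR-23a-3p the ratio was 1.306, 1.360, 1.345 and 1.275 in LPS replicates 6, 10, 11 and 12, against 1.184, 1.202, 1.212 and 1.182 in sham replicates 5, 6, 7 and 8. The b cluster guides separated in the same direction by smaller amounts. For miR-23b-3p the ratio ran from 1.16 to 1.22 in LPS and from 1.09 to 1.13 in sham kidneys, and for miR-27b-3p from 1.65 to 1.73 in LPS and from 1.59 to 1.62 in sham kidneys. The differences were 0.13 for miR-23a-3p, 0.089 for miR-23b-3p and 0.092 for miR-27b-3p. For miR-24-3p every LPS array was lower (0.2202 to 0.2586 in LPS and 0.2598 to 0.2800 in sham kidneys), with a difference of -0.024, and the groups almost touched. For these 5 guides the exact permutation p was 0.0286 and the adjusted p 0.0343 over the 6 ratios compared (n = 4 each), and for miR-24-2-5p the difference was -0.078 (exact permutation p = 0.200, adjusted p = 0.200, n = 4 each). These 6 tests were added after the pattern had been seen. Among 6 ratios, 4 that separate the groups completely are enough for an adjusted p under 0.05. The adjustment covers these 6 only and not the other miRNAs with 2 such probes. In all, 232 miRNAs had probes of 2 or more lengths above background on every array, and the longest and shortest of these were compared. Their lengths were not required to differ by only 1 base, as those of the members do. Of the 232, 17.2% had every LPS ratio above every sham ratio and 5.17% had every one below. The median shift was 0.018 over these 232 and 0.091 over the 6 members.

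**Figure D4:**
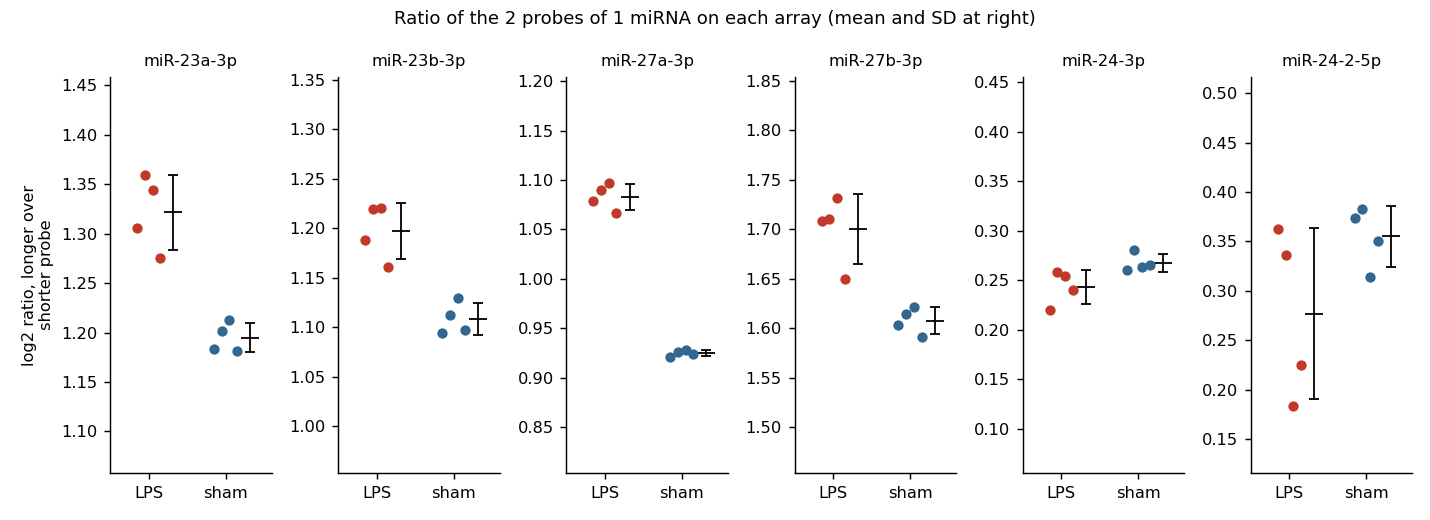
Log2 ratio of the longer to the shorter probe of the same miRNA on each array, with 4 LPS arrays left of 4 sham arrays, the mean ± SD beside the points and the same span in every panel. The 4 guides of miR-23 and miR-27 have higher ratios on all LPS arrays, miR-24-3p has slightly lower ones, and miR-24-2-5p overlaps.

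The group difference of miR-23 and miR-27 guides was lower on the shorter probe. For miR-27b-3p it was -0.069 on the longer probe and -0.16 on the shorter one. With only the shortest probe of each miRNA, an alternative chosen after seeing the data, miR-27b-3p was called lower (-0.16 ± 0.042 SE, adjusted p = 0.0308 with limma), as were 19.2% of the 338. With only the longest it was not called (-0.069, adjusted p = 0.319 with limma), where 24.9% were called lower. For miR-27a-3p the values were 0.025 on the longer and -0.13 on the shorter probe, for miR-23a-3p 0.020 and -0.11, and for miR-23b-3p -0.012 and -0.10. None of these 3 was called with either probe alone. The part of slide row in the probe ratios cannot be told apart from that of LPS, and other causes were not tested.

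MiR-27b-3p was also called under 2 other scalings. With cyclic loess its difference was -0.12 (adjusted p = 0.0334 with limma), where 25.4% of the 338 were called lower. With scaling to labelling spike-ins it was -0.24 (adjusted p = 0.0224), as was miR-23b-3p at -0.18 (adjusted p = 0.0497), where 45.0% were called lower. The spike-in scaling moved the median of all 338 to -0.23. Relative to that median miR-27b-3p was at -0.0084 and miR-23b-3p at 0.044. These distances equal those of the percentile scaling by construction, since both scalings divide each array by a constant. In the other settings where it was called, miR-27b-3p lay farther from the median of all, at -0.054 with cyclic loess and -0.12 with the shortest probe. Calls were made in 4 of the 182 values that the 7 members took over 26 alternatives. These values are not independent, since several alternatives, such as the detection filter and the limma variance, left every member's difference as it was.

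**Figure D5:**
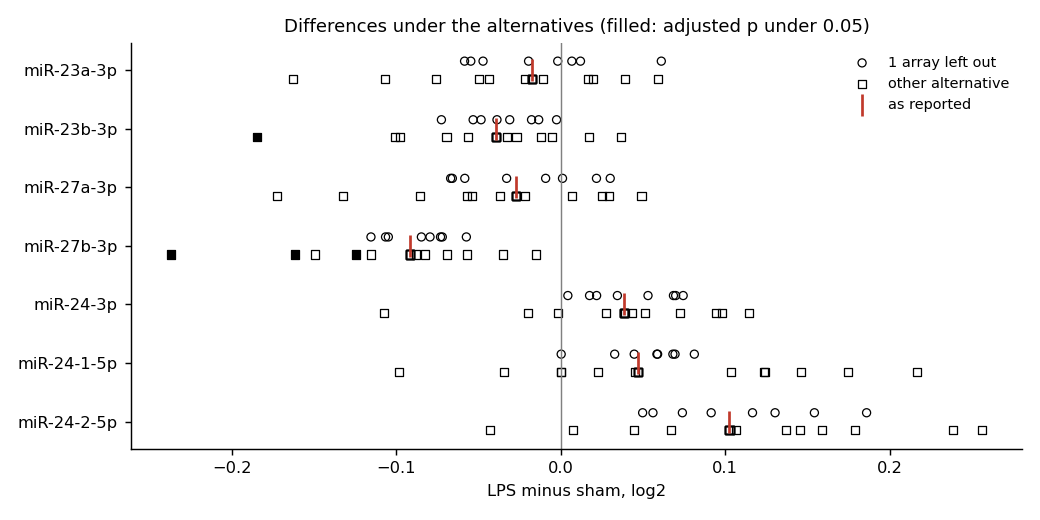
LPS minus sham differences on the log2 scale of the 7 tested members under each alternative, with circles for leaving out 1 array, squares for other alternatives, filled where the adjusted p was under 0.05, and a red bar for the value reported. The 4 filled squares belong to miR-27b-3p and miR-23b-3p, and the values of miR-27b-3p alone stay below 0 throughout.

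The miRNAs whose levels over the 8 arrays were most like a member's, by Pearson correlation among 299 others above background on all arrays, are given as a description, since all share the scaling of each array. They were miR-30b-5p and miR-26a-5p for miR-23a-3p (0.944 and 0.895), miR-200a-3p and miR-301a-3p for miR-23b-3p (0.928 and 0.916), and miR-100-5p and miR-139-5p for miR-27a-3p (0.945 and 0.937). For miR-27b-3p they were miR-374c-5p and miR-378c (0.948 and 0.942), and for miR-24-3p they were miR-130a-3p and miR-126a-3p (0.912 and 0.900). For the passengers they were miR-141-3p and miR-210-3p for miR-24-2-5p (0.926 and 0.842), and miR-99b-5p and miR-199a-3p for miR-24-1-5p (0.735 and 0.733). Among these 14, only miR-374c-5p passed the test between the groups (-0.24, adjusted p = 0.0273 with limma).

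The arrays held 336 to 375 miRNAs above background, with 15.8% to 17.5% of spots well above it. Over all 338 tested miRNAs, 25.4% were called lower and 14.8% higher, and the marker counts below are to be read beside these shares. The kidney tubule markers were all above background, and 3 of 6 (miR-192-5p, miR-194-5p and miR-204-5p) fell, with a summed level of 5.94 to 6.15 in LPS and 6.09 to 6.20 in sham. The other tubule markers did not pass, with miR-30a-5p at -0.11, miR-10a-5p at 0.10 and miR-10b-5p at 0.11. Of the leukocyte markers 2 of 6 rose, miR-223-3p and miR-155-5p, with a summed level of 1.79 to 1.89 in LPS and 1.18 to 1.64 in sham. The other leukocyte markers did not pass and differed in sign, with miR-142a-3p at 0.26, miR-142a-5p at 0.13, miR-342-3p at -0.010 and miR-150-5p at -0.22. Both endothelial markers, miR-126a-3p at -0.016 ± 0.057 (SE, adjusted p = 0.840 with limma) and miR-126a-5p at -0.022 ± 0.069 (SE), did not pass, with a summed level of 4.10 to 4.27 in LPS and 4.13 to 4.23 in sham. Both tested red cell markers rose, miR-451a by 2.43 ± 0.71 and miR-144-3p by 2.46 ± 0.68 (SE). Their summed level was 1.01 to 3.78 in LPS and -0.97 to 1.64 in sham. Of the smooth muscle and stroma markers 2 of 5 fell, miR-145a-5p (-0.44) and miR-199a-5p (-0.25). The others did not pass and differed in sign, with miR-143-3p at 0.054, miR-199a-3p at 0.16 and miR-214-3p at -0.12. The summed level of this list was 2.84 to 3.002 in LPS and 2.76 to 2.95 in sham. Among striated muscle markers 0 of 2 tested passed (-2.47 to -2.38 in LPS and -2.81 to -2.23 in sham). The red cell marker miR-486a-5p, the striated muscle marker miR-133a-3p and the liver marker miR-122-5p did not pass the detection filter. The part of changing cell mixture in the values of the clusters was not tested.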

How the data were processed

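MicroRNAs were measured on 8 Agilent arrays, 4 LPS and 4 sham. The spot intensities deposited by the authors are scanner output, background-subtracted with spatial detrending and not scaled between arrays, per the file headers. Software was Agilent Feature Extraction 12.0.3.1, per the submitters' processing notes. A table of linear ratios deposited by the authors was used only as an alternative. Over 383 miRNAs, 100% of its log2 values fell within 0.01 of the scanner's total signals once a constant for each array and each miRNA was removed. It is linear and centred per miRNA, and how the array constants arose is unknown. Its column medians were 0.958, 0.960, 1.01 and 1.03 for LPS replicates 6, 10, 11 and 12 and 0.995, 1.06, 1.05 and 0.980 for sham replicates 5, 6, 7 and 8.

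Outlier spots were left out, the spots of a probe averaged, each array scaled to the 75th percentile of the 551 probes that all arrays detected, the probes of a miRNA summed, floored at -4.68 log2 and log2-transformed. A probe counted as above background where over 50% of its spots were well above background. The test between groups was limma 3.58.1 (R 4.3.3), a 2-sided moderated test without covariates, checked on simulated data, and ratios by exact permutation with SciPy 1.17.1. No non-control spot was saturated, and the number of arrays limits the precision. The miRNAs named are the members, the other products of their hairpins, the 2 most correlated miRNAs per member, marker lists, the miRNAs that share a seed (named after the values were seen) and no others. Members and lists were chosen with earlier results of these data known.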

Additional observations from a re-analysis of the deposited data

Results flagged for a closer look

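Of 48 groups of 4 arrays examined (levels of the 7 tested members, the 11 ratios between members and the 6 ratios between probes), a single one had an array standing apart from its other 3, and about 2.40 such groups arise by chance (1 in 20). In the log2 ratio of miR-24-2-5p to miR-24-3p, sham replicate 7 stood apart at -6.29, and the other sham arrays lay between -6.14 and -6.11.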

How the results depend on the processing

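The 26 alternatives changed the scaling, the background step, the probe summary, the detection filter, the floor or the limma variance, used slide column as a block or the deposited ratios, or dropped 1 array. Those with only the longest or only the shortest probe were added after the data had been seen. The 7 members' differences are small, and several changed sign without passing the test. With the percentile over all probes miR-23a-3p, miR-23b-3p and miR-27a-3p were at 0.039, 0.017 and 0.029, and without scaling at 0.059, 0.037 and 0.049. The deposited table gave 0.017 and 0.0071 for miR-23a-3p and miR-27a-3p, and the longest probe 0.020 and 0.025. MiR-24-3p was at -0.0014 with cyclic loess, -0.11 with labelling spike-ins and -0.020 with the manufacturer's total signal, miR-24-1-5p at -0.098 with spike-ins and -0.035 with normexp, and miR-24-2-5p at -0.043 with spike-ins. Leaving out 1 array gave -0.058 to 0.061 for miR-23a-3p, -0.073 to -0.0025 for miR-23b-3p, -0.067 to 0.030 for miR-27a-3p, -0.12 to -0.057 for miR-27b-3p, 0.0044 to 0.074 for miR-24-3p, 0.00032 to 0.081 for miR-24-1-5p and 0.050 to 0.19 for miR-24-2-5p, and no member was called. Ratios changed sign as follows: miR-23a-3p to miR-23b-3p -0.0058 with the shortest probe (-0.0052 to 0.064 without 1 array), miR-24-2-5p to miR-24-1-5p -0.080 with the manufacturer's total signal and -0.080 with the deposited table (-0.018 to 0.13), miR-24-1-5p to miR-24-3p -0.078 with normexp, -0.017 with the mean of logs, -0.038 with double the floor and -0.051 with the shortest probe (-0.024 to 0.046), miR-24-2-5p to miR-24-3p -0.036 with normexp (0.26 with cyclic loess, 0.022 to 0.11 without 1 array), and miR-23a-3p to miR-27a-3p -0.0055 with the longest probe (-0.0097 to 0.031). With double the floor and with the shortest probe, miR-24-1-5p was at the floor on every array. Its ratio to miR-24-3p in these settings therefore shows the difference of miR-24-3p alone, with the sign turned. The cause of the other sign changes was not tested. The adjusted p of the ratios between members says nothing about their stability, since 7 of 11 would have to separate fully to pass, and without 1 array no p is below 0.0571. Over all miRNAs, 60 changed with no filter (1881 tested) and 80 with slide column as a block, against 136, and 94 to 148 when 1 array was left out (55 lower without sham replicate 7 and 56 without LPS replicate 11, against 86). Higher and lower calls were 50 and 86, against 55 and 53 with the percentile over all probes, 57 and 49 without scaling, 46 and 53 with the deposited table, 29 and 31 with no filter, and 34 and 152 with spike-ins. Slide column as a block pairs arrays by their place on the slide, and the members' adjusted p was then 0.207 to 0.883. By replicate number, no paired analysis was possible because the groups share only number 6.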
